A study of Homo sapiens with 2 samples.

Results

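OTX2, OTX1 and CRX are the 3 human genes of the OTX family of homeobox transcription factors, and the values described here are the OTX2 chromatin immunoprecipitation (ChIP) peaks around them in medulloblastoma cells. A peak was assigned to a gene when it overlapped, by at least 1 base pair (bp), the GENCODE record of that gene in the GRCh38 genome build extended by 100 kb on each side. This rule took 89 of the 137412 peaks in the deposited list (0.0648%), with 37 around OTX2, 25 around OTX1 and 27 around CRX, and the same windows were laid around all 19881 protein-coding genes for comparison. The study used D283 cells, an established human medulloblastoma line, grown as tumorspheres on low-attachment plates in a neural stem cell medium. The tumorspheres were untreated, expressed OTX2 (labelled OTX2+ control) and gave 1 library precipitated with an OTX2 antibody and 1 input library made without antibody. One line and 1 library of each kind give no replicate spread, so no comparison below carries a test, and the 95% intervals are exact Poisson intervals that cover counting error only. The peak list holds no expression values, so the identity of the cells could not be checked against marker genes.

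OTX proteins carry a bicoid-class homeodomain, which recognises the sequence TAATCC and the related TAATCT. OTX2 specifies the forebrain and midbrain in the embryo, acts again in the retina and pineal gland, and is an oncogenic factor in medulloblastoma. OTX1 acts in cortical neurons and sense organs, and CRX drives the photoreceptor genes and is itself a known target of OTX2 in the developing retina. A transcription factor that binds next to its own gene, or next to the genes of its relatives, can in principle act on their expression, which is the question these windows address. The antibody was raised against OTX2, and whether it also bound OTX1 or CRX was not tested here. Every value below is a count of fragments from this ChIP. It does not tell where OTX1 or CRX protein sat, nor whether any of the 3 genes was transcribed.

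The bases in front of the transcript starts are shown first, because the members differed both in whether a peak lay there and in whether the OTX recognition letters did. Each run holds the 250 bases before a RefSeq transcript start (GRCh38.p14), written 5′ to 3′ on the strand of the gene, and capitals mark TAATCC or, where it lies on the other strand, its reverse complement GGATTA. The CRX run (chr19:47821687-47821936, plus strand) and the OTX2 run (chr14:56810480-56810729, minus strand) each had a peak summit inside them, and the OTX1 run (chr2:63050580-63050829, plus strand) had no peak. A further OTX2 run, before the RefSeq start at 56805667, had no peak and held neither TAATCC nor TAATCT, and it is not printed. OTX2-AS1 is the antisense long noncoding RNA (lncRNA) gene that starts inside the OTX2 record and runs away from it, and its run (chr14:56812908-56813157, plus strand) held the summit of the tallest peak of the OTX2 record. TPRX2 is a homeobox gene derived from CRX by duplication, downstream of CRX, and its run (chr19:47858985-47859234, plus strand) is given for its recognition letters.
CRX: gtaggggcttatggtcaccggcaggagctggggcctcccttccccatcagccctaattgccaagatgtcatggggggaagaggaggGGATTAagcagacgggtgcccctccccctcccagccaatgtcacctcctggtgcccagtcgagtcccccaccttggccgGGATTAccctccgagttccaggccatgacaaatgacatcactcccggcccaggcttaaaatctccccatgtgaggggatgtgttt
OTX2: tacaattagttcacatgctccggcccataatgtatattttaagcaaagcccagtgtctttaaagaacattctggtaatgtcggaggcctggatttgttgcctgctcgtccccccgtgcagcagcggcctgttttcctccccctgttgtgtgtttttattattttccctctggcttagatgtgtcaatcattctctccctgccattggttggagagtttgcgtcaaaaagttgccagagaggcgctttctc
OTX1: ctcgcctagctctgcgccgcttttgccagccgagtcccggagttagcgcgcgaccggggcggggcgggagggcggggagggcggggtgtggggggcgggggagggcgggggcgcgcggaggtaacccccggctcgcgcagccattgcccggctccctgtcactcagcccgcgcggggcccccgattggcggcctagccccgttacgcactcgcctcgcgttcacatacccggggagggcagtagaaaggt
OTX2-AS1: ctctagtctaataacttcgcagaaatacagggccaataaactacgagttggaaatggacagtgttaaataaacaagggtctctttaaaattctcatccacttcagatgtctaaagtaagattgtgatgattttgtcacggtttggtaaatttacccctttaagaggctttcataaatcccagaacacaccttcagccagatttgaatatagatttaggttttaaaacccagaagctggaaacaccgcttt
TPRX2: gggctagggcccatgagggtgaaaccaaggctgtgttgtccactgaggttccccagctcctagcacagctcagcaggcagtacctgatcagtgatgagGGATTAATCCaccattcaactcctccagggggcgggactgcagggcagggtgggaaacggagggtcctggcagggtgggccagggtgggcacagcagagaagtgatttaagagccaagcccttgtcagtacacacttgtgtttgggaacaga

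The CRX promoter held TAATCC at 2 places, both on the strand opposite to the gene. One match lay 164 to 159 bp before the transcript start (chr19:47821773-47821778) and the other 85 to 80 bp before it (chr19:47821852-47821857). The summit of the peak over this promoter lay 2 bp from the edge of the farther match and 81 bp from the edge of the nearer one. Both strands of every RefSeq promoter run of this length were searched for TAATCC and TAATCT, and matches were allowed to overlap each other on the same or the opposite strand. TAATCC was present in 5.62% of the 35116 runs and occurred at least 2 times in 0.342% of them, and TAATCT was present in 6.41%. Runs overlapped by a peak held TAATCC in 7.09% of 10343 cases, those not overlapped in 5.01% of 24773, and those with a peak summit inside in 10.6% of 5301. For TAATCT the shares in the same order were 5.50%, 6.79% and 7.17%, so that it was less common in overlapped runs than in those not overlapped. At least 2 TAATCC matches, as in the CRX run, occurred in 0.541%, 0.258% and 0.924% of runs in that order. The OTX2, OTX1 and OTX2-AS1 runs held neither motif. The TPRX2 promoter held 2 overlapping matches on opposite strands, 152 to 147 and 148 to 143 bp before its start, and no peak overlapped it, the nearest summit lying 4449 bp downstream of the start. A match of 6 letters is a description of the sequence and not a measured binding site.

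OTX2 stood in one of the most densely marked neighbourhoods of the genome, and its tallest peaks lay far from the gene. The OTX2 record (chr14:56799905-56816693, minus strand) and its flanks held 37 peaks in 216789 bp, or 17.07 peaks per 100 kb, against a median of 5.18 over protein-coding genes. Only 0.297% of protein-coding genes, 59 of 19881, had a higher density. Within chromosome 14, whose genes had a median of 6.13 peaks per 100 kb, OTX2 stood at percentile 99.5. A peak within the window was itself no distinction, since 97.3% of protein-coding genes had at least 1. The summits were spaced by a median of 2544 bp, compared with 9230.5 bp over the whole list.

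The OTX1 and CRX windows were less dense than that of OTX2 and close to each other. OTX1 (chr2:63050057-63057836, plus strand) had 25 peaks in 207780 bp, or 12.03 per 100 kb, and CRX (chr19:47819779-47843330, plus strand) had 27 in 223552 bp, or 12.08 per 100 kb. Counting only peaks with a fold of at least 5 left 22 at OTX2, 17 at OTX1 and 13 at CRX. OTX1 then had more than CRX. A fold of 5.07 stood at percentile 38.4 of all peaks, so most peaks of the list had at least that fold. The density of other genes at this threshold is not given here. Protein-coding genes with a higher density, over all peaks, made up 4.06% for OTX1 and 3.97% for CRX. Summed over the window, the summit fragments per 100 kb stood at percentile 99.8 for OTX2, 98.2 for OTX1 and 95.9 for CRX. The peaks covered 16.0% of the bases of the OTX2 window, 7.19% of the OTX1 window and 8.34% of the CRX window.

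**Figure D1:**
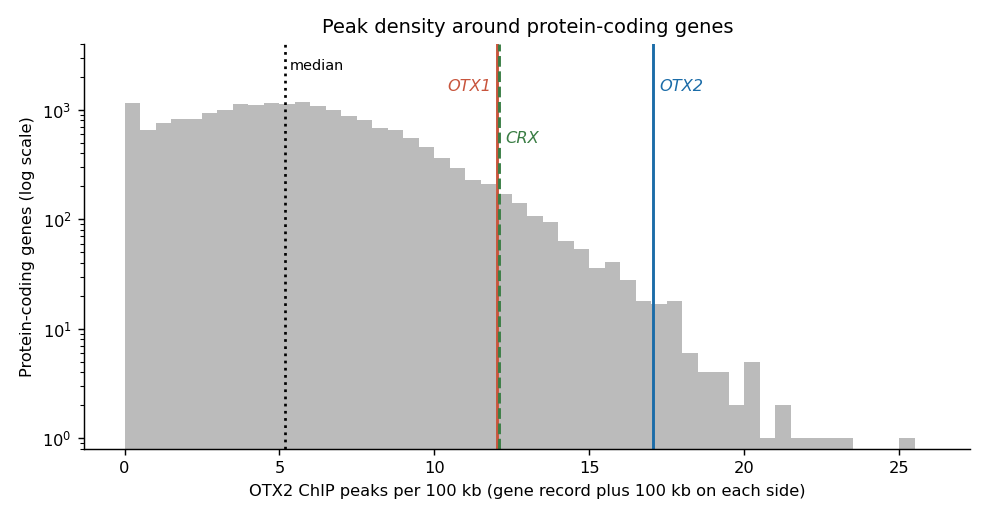
Histogram of OTX2 ChIP peaks per 100 kb of window for 19881 protein-coding genes, with the number of genes on a log axis, the dotted line at the median of 5.18 and vertical lines at the 3 OTX genes. OTX2 lies at 17.07 in the thin right tail, and OTX1 (12.03) and CRX (12.08) lie side by side nearer to the bulk.

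Around OTX2 the peaks were distributed over both flanks and the gene. Of the 37 summits, 9 lay upstream of the record, 17 downstream, 10 in introns and 1 in an exon. OTX2 was the nearest protein-coding gene, by the 5′ end of the gene record, for all 37. When transcript starts of every gene type were counted, OTX2 was nearest for 17 peaks, and the lncRNA genes ENSG00000258703 and ENSG00000258776 were nearest for 7 each, ENSG00000259133 for 4 and OTX2-AS1 for 2. OTX2 is the only protein-coding gene in its window, which holds 4 lncRNA genes besides. The longest stretch without a peak was 38.8 kb, upstream of the gene between chr14:56821566-56860396.

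The tallest peak of the OTX2 window (chr14:56758889-56761396) held 314 fragments at its summit (95% interval 280 to 351) with a fold enrichment over input of 22.4. Its summit lay 49.7 kb downstream of the start of the canonical transcript, inside ENSG00000258703. The second, with 276 fragments (244 to 311), had the highest fold of the window, 31.8, and lay 80.8 kb upstream inside both OTX2-AS1 and ENSG00000258776 (chr14:56890922-56892083). These were followed by 247 fragments (fold 18.3) at 55.0 kb downstream and 234 fragments (fold 22.3) at 31.7 kb downstream. The next held 220 fragments (192 to 251) with a fold of 12.5, lay 79.8 kb downstream and had its summit 124 bp from the start of ENSG00000259133. One more peak passed 200 fragments, with 215 fragments and a fold of 24.7 at 77.9 kb upstream. The 6 peaks of at least 200 fragments were thus 4 downstream and 2 upstream, and none was closer to the canonical start than 31.7 kb. A peak of that height within the window was seen for 40.1% of protein-coding genes, and all 3 OTX genes had one.

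Inside the OTX2 gene the peaks were many and of moderate height. The record was overlapped by 12 peaks, with 31 to 182 fragments and a median of 70, and 1 of them reached a fold of 10. Overall 69.5% of protein-coding genes had at least 1 peak inside the record. The tallest of the 12 (chr14:56811595-56813835) held 182 fragments (157 to 210) with a fold of 14.98, had its summit 2.57 kb upstream of the canonical OTX2 start, and lay 131 bp upstream of the OTX2-AS1 start of GENCODE. It covered the OTX2-AS1 run printed above, where the summit lay 106 bp before the RefSeq start.

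The peak at the canonical OTX2 start itself (chr14:56810215-56810790) held 130 fragments (109 to 154) with a fold of 9.66. Its summit lay 22 bp upstream of the start of the canonical transcript at 56810479. The 12 annotated OTX2 transcripts begin at 8 positions, of which 6 lay inside a peak, and these 6 serve 9 of the 12 transcripts. Those from 56810222 to 56810479 all lay in the same peak, the 130, and that at 56816693 lay in a peak of 50 fragments. The starts outside any peak, at 56805648 and 56805667, lay 526 and 507 bp from the edge of a peak of 41 fragments (fold 3.91). Across protein-coding genes the canonical start lay inside a peak for 32.1%. This share is of canonical starts only, unlike the count of positions.

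The 5′ end of the OTX2 gene record is the start of a single, longer transcript at 56816693, and it was less marked than the canonical start. From 5 kb upstream to 2 kb downstream of this end, the promoter window used in the study, 4 peaks were found with 74, 50, 55 and 60 fragments. Their folds were 4.44, 3.95, 4.46 and 4.67. Such a peak was present for 57.2% of protein-coding genes, and OTX2 stood at percentile 81.4 by the tallest of its own. That peak, the 74, overlapped only the edge of the window, with its summit 2091 bp downstream of the 5′ end. With the summit required inside the window, 3 peaks were left. Both peaks of over 100 fragments near the gene start, the 130 and the 182, fell outside this window, since the canonical start lies farther into the record.

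Within the transcribed part of OTX2, intron 2 of the canonical transcript held 4 summits with 31, 80, 36 and 41 fragments and folds of 2.83, 6.05, 2.50 and 3.91. Intron 4 held 2, with 66 and 46 fragments and folds of 5.69 and 3.17. The single exonic summit lay in the coding part of exon 5, the last exon, in a peak (chr14:56800737-56802048) of 111 fragments (91 to 134) with a fold of 9.47. Just past the 3′ end of the gene lay the longest peak of the window, 3349 bp with 103 fragments and a fold of 8.37. Between there and the tallest downstream peaks stood a row of peaks of 180 (fold 10.3), 92 (fold 5.28), 102 (fold 5.43), 38 (fold 4.02) and 113 fragments (fold 12.8).

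**Figure D2:**
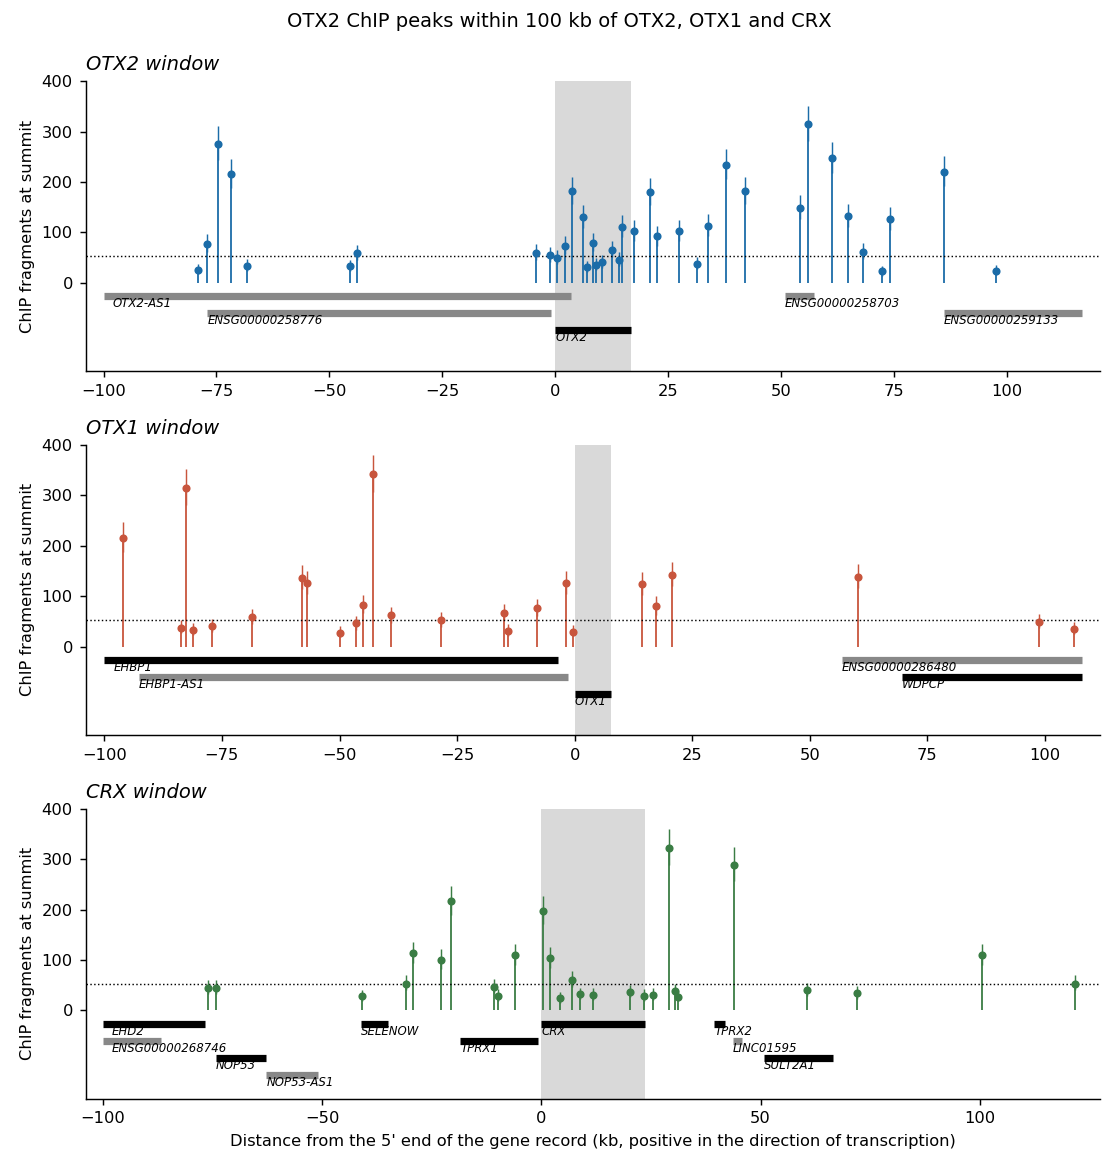
OTX2 ChIP fragments at each peak summit (points, with exact Poisson 95% bars) against distance from the 5′ end of the gene record in kb for OTX2, OTX1 and CRX, with the gene record shaded, the median of all peaks (53 fragments) dotted, and protein-coding (black) and lncRNA genes (grey) drawn beneath. Tall peaks flank OTX2 on both sides, lie upstream of OTX1 within EHBP1, and stand on both sides of CRX.

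OTX1 showed no peak inside the gene and none over its transcript starts. Across protein-coding genes 69.5% had a peak inside the record, and 32.1% had one over the canonical start. The OTX1 record, of 7780 bp, is shorter than those of OTX2 (16789 bp) and CRX (23552 bp). Of the 25 OTX1 summits, 19 lay upstream of the record and 6 downstream. The record begins at 63050057 and the canonical transcript at 63050830, and none of the 5 annotated start positions of its 6 transcripts lay inside a peak. The nearest peak (chr2:63049345-63049814) ended 1016 bp before the canonical start and held 30 fragments (20 to 43) with a fold of 4.62, below the median of 53 fragments over all peaks. The next (chr2:63048047-63048905) held 126 fragments (105 to 150) with a fold of 17.97 and lay 2.54 kb upstream of that start. Its summit was 73 bp from the start of EHBP1-AS1, a lncRNA gene transcribed away from OTX1. These were the 2 peaks in the OTX1 promoter window, and by the taller one OTX1 stood at percentile 92.8 of protein-coding genes.

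The tallest OTX1 peaks lay upstream in EHBP1, a gene for an adaptor protein of endocytic transport. EHBP1 held 17 of the 19 upstream summits, with a median of 62 fragments. The tallest (chr2:63006634-63008490) held 342 fragments (307 to 380) with a fold of 22.95, 43.7 kb upstream of the canonical OTX1 start. A second, 83.5 kb upstream (chr2:62966814-62967691), held 315 fragments (281 to 352) and had the highest fold of all 89 peaks, 33.2. The third, 96.9 kb upstream, held 216 fragments (188 to 247) with a fold of 22.6. By the 5′ end of gene records OTX1 was the nearest protein-coding gene for all 25 peaks, whereas by the start of any transcript EHBP1 was nearest for 17 and OTX1 for 2. The summits of the 315 and the 216 lay 2367 and 1654 bp from an EHBP1 transcript start. EHBP1-AS1 also held 17 of the upstream summits, the 342 and the 315 among them. The list therefore cannot tell which of OTX1, EHBP1 and EHBP1-AS1, if any, the peaks inside EHBP1 relate to.

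Downstream of OTX1, peaks of 124, 80 and 143 fragments stood 13.5, 16.6 and 19.8 kb from the canonical start, with folds of 11.2, 9.62 and 11.8. A gap of 39.0 kb followed. The next peak, of 138 fragments and a fold of 14.5, lay 59.5 kb downstream in the lncRNA gene ENSG00000286480, and the last 2 peaks held 49 and 35 fragments. The 143 and the 138 were the tallest OTX1 peaks after the 3 above 200 fragments. An upstream peak of 137 fragments (fold 14.9, at 58.7 kb) followed, and the counting intervals of these 3 overlapped.

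CRX was marked at its start, and its window was shared with its duplicates. The peak over the canonical CRX start at 47821937 (chr19:47821502-47823262) held 104 fragments (85 to 126) with a fold of 12.9, and its summit lay 166 bp upstream of that start, beside the first of the 2 TAATCC matches. A second and taller peak (chr19:47819116-47820386) held 197 fragments (170 to 227) with a fold of 20.8. Its summit lay 294 bp after the first base of the CRX gene record, in an intron of a longer transcript, and 1.86 kb upstream of the canonical start. Of the 6 CRX start positions 4 lay inside a peak. Those from 47821934 to 47821964 all lay in the 104, and that at 47819779 lay in the 197. By the taller of these 2 peaks CRX stood at percentile 97.8 of protein-coding genes for the promoter window, the highest of the 3 OTX genes. This order holds for windows set at the 5′ end of the gene record. The OTX2 peak of 182 fragments (157 to 210), 2.57 kb upstream of its canonical start, fell outside the OTX2 window. Its counting interval overlapped that of the 197. TPRX1, a homeobox gene that also arose by duplication of CRX, starts just upstream on the opposite strand, and its promoter window reached the same peak.

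The remaining peaks inside the CRX record were low. The record was overlapped by 8 peaks with a median of 34.5 fragments, and beyond the 197 and the 104 they held 24, 60, 32, 31, 37 and 29 fragments with folds of 3.53, 4.51, 4.92, 4.76, 5.64 and 3.19. Of these 6, 4 lay in intron 1 of the canonical transcript, and the last 2 had their summits in exon 4, the last exon, outside the coding sequence.

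The tallest CRX peak (chr19:47848324-47849960) lay 27.0 kb downstream of the canonical start, past the end of the gene, with 322 fragments (288 to 359) and a fold of 21.6. The next (chr19:47863000-47864989) held 289 fragments (257 to 324) with the highest fold of the window, 28.3, and lay 41.7 kb downstream inside the lncRNA gene LINC01595. The third peak of at least 200 fragments lay upstream at 22.8 kb, with 216 fragments (188 to 247) and a fold of 10.7 over a local input of 14 pileup units, the highest input in the window. Behind the 197, the next of the window held 113 fragments with a fold of 9.34 at 31.5 kb upstream. The tallest peaks of the 3 windows, 342 at OTX1, 322 at CRX and 314 at OTX2, had overlapping counting intervals.

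CRX lies among other protein-coding genes, with 6 of them within its window, compared with 2 (EHBP1 and WDPCP) within that of OTX1 and none within that of OTX2. CRX itself was the nearest protein-coding gene for 6 of the 27 peaks, TPRX2 for 7, TPRX1 and SELENOW for 4 each, SULT2A1 for 3, NOP53 for 2 and BSPH1 for 1. The windows of TPRX1 and TPRX2 each shared 25 peaks with that of CRX. These made up 92.6% of the CRX peaks, 89.3% of the 28 TPRX1 peaks and 96.2% of the 26 TPRX2 peaks, so the 3 windows hold largely the same peaks. The 322 peak was also the tallest within 100 kb of TPRX1 and TPRX2.

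**Figure D3:**
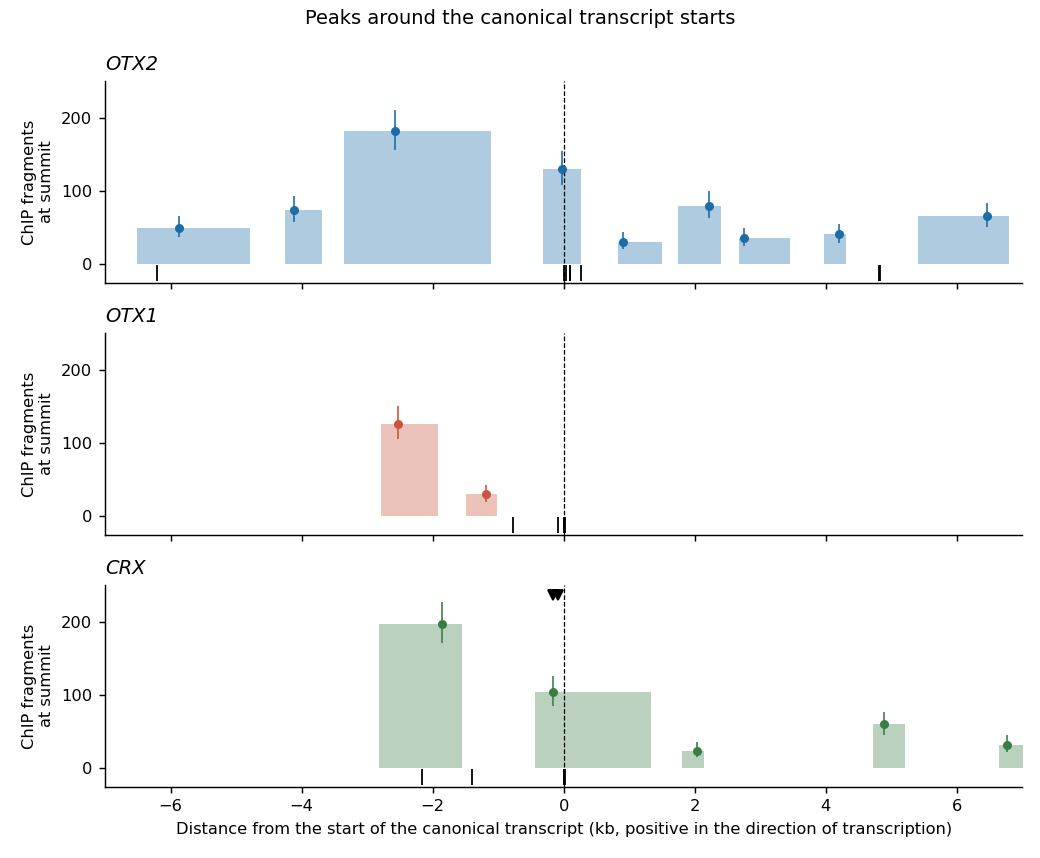
Peaks (shaded spans, as tall as the fragments at the summit) and summits (points, with exact Poisson 95% bars) within 7 kb of the canonical transcript start of each OTX gene, in kb along the direction of transcription, with annotated transcript starts as ticks below 0 and the 2 CRX TAATCC matches as triangles. Peaks lie over the canonical starts of OTX2 (130 fragments) and CRX (104), and none lies over that of OTX1.

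The OTX windows differed from the rest of the genome more in the number of peaks than in their fold. The median number of fragments was 80 at OTX2, 67 at OTX1 and 45 at CRX, against 53 over all peaks. At OTX2 26 of 37 peaks (70.3%) were above this median, at OTX1 15 of 25 (60.0%) and at CRX 10 of 27. The median fold was 5.98, 5.75 and 4.97 in the same order, against 6.10 over all peaks. Peaks with a fold of at least 10 were 12 at OTX2 (32.4%), 9 at OTX1 (36.0%) and 6 at CRX (22.2%), and 26.3% over the whole list. CRX thus matched OTX1 in the number of peaks per 100 kb but had more low ones, and its 5 tallest peaks held 50.7% of its summit fragments, compared with 46.6% at OTX1 and 32.1% at OTX2.

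Peaks of at least 200 fragments were 16.2% at OTX2, 12.0% at OTX1 and 11.1% at CRX, against 6.45% of all peaks. By its tallest peak alone OTX2 stood at percentile 90.8, OTX1 at 95.1 and CRX at 92.3, where the median protein-coding gene had a tallest peak of 172 fragments. OTX1, with no peak in the gene, had the tallest of the 3. By the highest fold in the window the percentiles were lower, 87.7 for OTX2, 89.8 for OTX1 and 80.3 for CRX. Peaks at least 1 kb long were 11 at OTX2 (29.7%), 2 at OTX1 (8.0%) and 6 at CRX (22.2%), and 8.16% of all peaks.

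The local input was higher under the OTX2 peaks. Read back from the pileup and the fold, it had a median of 8.0 pileup units at OTX2 (range 5.1 to 13), 6.1 at OTX1 (4.0 to 15) and 6.0 at CRX (4.0 to 14), against 5.0 both over all peaks and over those of chromosome 14. An input of at least 3 times the genome floor of 3.99 stood under 6 OTX2 peaks (16.2%), 1 OTX1 peak (4.0%) and 1 CRX peak (3.70%), and under 4.22% of all peaks. The part of the input in the density of the OTX2 window was not tested, and without these 6 peaks 31 were left, with the tallest still at 314 fragments. The OTX2 peaks of 215 and 276 fragments upstream both had an input of 5.4 pileup units.

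**Figure D4:**
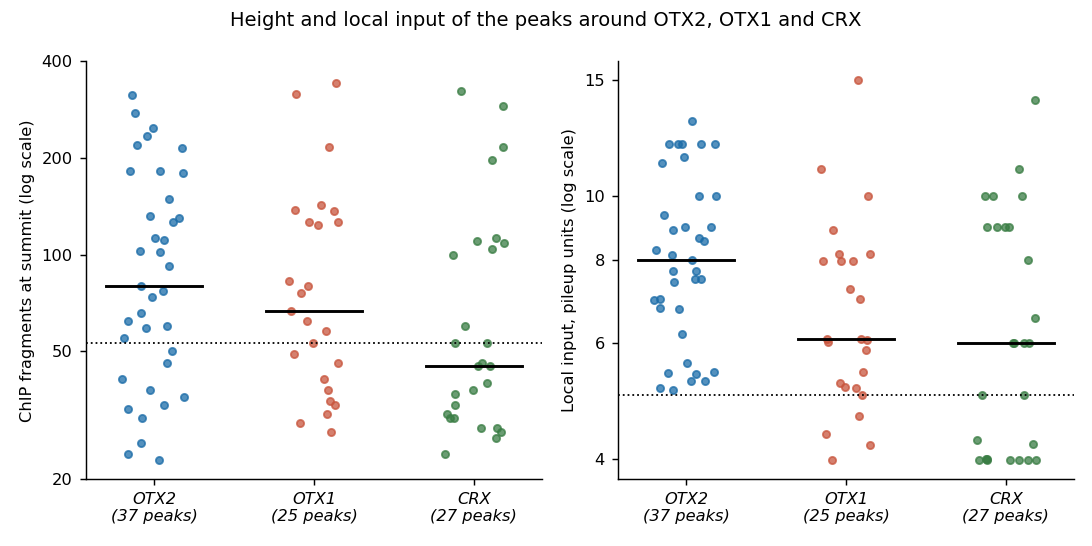
ChIP fragments at the summit (left) and local input in pileup units (right), both on log axes, for each peak around OTX2, OTX1 and CRX, with black bars at the medians and dotted lines at the medians of all peaks (53 fragments and 5.0 pileup units). OTX2 peaks are taller in the median (80 fragments) and stand on a higher input (8.0), while the CRX median of 45 fragments is below that of all peaks.

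The other bicoid-class genes examined had lower densities than the OTX genes, as did most protein-coding genes. The list held GSC, GSC2, PITX1, PITX3 and DMBX1, which act in the organizer, pituitary, limb, eye and midbrain. All 5 had a peak within 100 kb, 4 had one in the promoter window and 3 had one of at least 200 fragments, against 97.3%, 57.2% and 40.1% of all protein-coding genes. Their density had a median of 8.21 per 100 kb and a range of 1.48 for GSC2 to 10.2 for DMBX1, and 3 of the 5 were above the median of protein-coding genes. Above any OTX gene were 0 of 5, where few genes of any kind stood. The share of all protein-coding genes with a higher density was 4.06% for OTX1, 3.97% for CRX and 0.297% for OTX2. DMBX1, a midbrain factor, nevertheless had a tallest peak of 360 fragments, above all 3 OTX genes.

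Of the 5 genes derived from CRX, only the neighbours of CRX were densely marked. TPRX1 and TPRX2 had 12.9 and 12.8 peaks per 100 kb, from largely the same peaks as CRX. The others, which sit elsewhere, had lower densities, with 4.77 for LEUTX, 4.04 for ARGFX and 1.27 for DPRX, below the median of protein-coding genes. In the promoter window 3 of the 5 had a peak, TPRX1, LEUTX and ARGFX, a share (60.0%) near the 57.2% of all protein-coding genes.

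Among 19 factors that work with OTX2 or CRX or lie in the same regulatory circuits, 12 were above the median density of protein-coding genes. A peak in the promoter window was found for 10 of the 19 (52.6%), and a peak of at least 200 fragments within 100 kb for 7 (36.8%), against 57.2% and 40.1% of all protein-coding genes. The median density was 6.76 per 100 kb. NEUROD1, a proneural factor, had the highest with 26 peaks or 12.2 per 100 kb, above OTX1 and CRX and below OTX2. At the other end FOXA2, a floor plate factor, had no peak within 100 kb, and EMX2, SOX2, GBX2 and LHX2 had from 0.966 to 2.16 peaks per 100 kb. All the other factors lay between, from 3.44 for SIX6 to 10.3 for ATXN7, with 8.46 for NRL, 7.29 for PAX6 and 4.43 for NR2E3 among them.

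**Figure D5:**
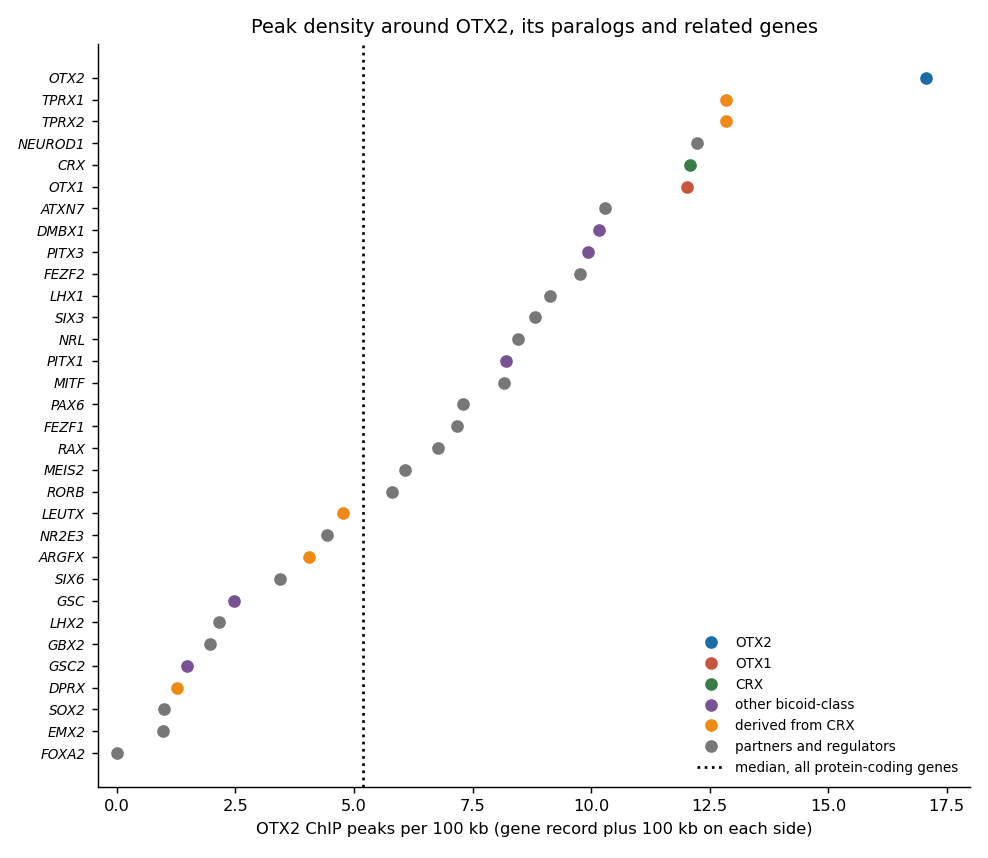
Peaks per 100 kb of window for OTX2, OTX1, CRX and 29 related genes, sorted and coloured by list, with the median of all protein-coding genes (5.18) dotted. OTX2 stands alone at 17.07, followed by TPRX1 and TPRX2, which share most peaks with CRX, then NEUROD1, CRX and OTX1.

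The genes most like each member were found by the distance between percentiles of density, tallest peak and tallest promoter-window peak, in this 1 library. For OTX2 they were RBM12, RHOF and PSMD14, with 13.9, 14.6 and 25.4 peaks per 100 kb and tallest peaks of 322, 312 and 299 fragments. For OTX1 they were ACY1, TSACC and SORBS2, with 12.1, 11.9 and 13.5 peaks per 100 kb. For CRX they were PHC2, its neighbour TPRX1, and MXRA7, with 12.4, 12.9 and 11.7. The 3 sets had no gene in common, but with only 3 genes taken per member this does not tell whether the members differ. The members already stood apart in the percentile of the tallest promoter-window peak, at 81.4 for OTX2, 92.8 for OTX1 and 97.8 for CRX. The overlap to be had by chance was not computed.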

How the data were processed

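Chromatin from D283 tumorspheres was precipitated with an OTX2 antibody (1 library) and sequenced beside input (1 library). Per the file headers and the study's methods, the authors mapped reads to GRCh38 with bowtie2 2.2.4, called peaks with MACS2 2.1.0.20140616 in paired-end mode (q 0.05, 1 duplicate kept, the deeper library scaled down) and masked blacklisted regions. The libraries held 84980793 (ChIP) and 32292980 (input) fragments, of which 61259377 and 22521186 were kept. The deposited list gives for each peak the pileup (a coverage signal at the summit), fold enrichment over local input as a ratio, and −log10 p-values and q-values, and the authors' −log10 q was used only as a threshold.

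Pileup was converted to whole fragments (0.735 pileup units each, and 100% of values were whole within 0.02). Local input was computed as (pileup + 1) / fold − 1. Gene records and transcript starts came from GENCODE release 44, taking the GRCh38 positions recorded in it, and promoter sequences from RefSeq. The sequence under distal peaks and the proteins were not analysed here. Scripts used Python 3.11.15, pandas 2.3.3 and scipy 1.17.1, and the counting was tested on simulated peaks.

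With 1 library of each kind no test was possible. Percentiles rank a gene among 19881 protein-coding genes. The members and lists were chosen with earlier results of these data known, and a few genes of the lists are not reported here. Peaks named with values are those in the promoter window, those in the record and the 5 tallest per window. The remaining peaks given singly, such as those in the row downstream of OTX2 and those downstream of OTX1, were chosen after their values were seen. The most alike genes are the 3 at the smallest Euclidean distance. Alternatives varied the peak threshold, overlap, window and transcript start. The canonical start, the RefSeq record and the removal of peaks with high input were added after seeing the data.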

Additional observations from a re-analysis of the deposited data

How the results depend on the processing

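Of 47 alternative values, 35 stayed within 1.5 times the count, or within the counting interval of the height, and 12 did not. With a fold of at least 5 the peaks within 100 kb fell from 37 to 22 at OTX2 and from 27 to 13 at CRX, and the promoter-window peaks from 4 to 0 at OTX2 and from 2 to 1 at OTX1. A 50 kb window left 14 of the 25 OTX1 peaks. Within 1 kb of the 5′ end of the record 2 peaks were left at OTX2, 1 at OTX1 and 1 at CRX. Counting around the start of any transcript gave 11 at OTX2 and 4 at CRX. Inside the gene record alone the tallest peak was 182 fragments at OTX2 and 197 at CRX, and OTX1 gave no value because it has no peak there. Leaving out peaks with high local input and using the RefSeq gene record, both chosen after seeing the data, moved no count by more than 1.5 times. The heights are limited by 1 library per condition, so neither the counts nor the order of the 3 genes has a replicate check. No paired analysis was possible because there is 1 ChIP library and 1 input library and no result comes from a test.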
